A study of Mus musculus with 16 samples.

Results

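Cnr1-rich interneurons were picked out of medial PFC nuclei, profiled one by one by RNA-Seq, through their counts alone. A nucleus was taken when it held at least 2 UMIs (unique molecular identifiers, each standing for 1 captured RNA molecule) of Gad1 and Gad2 together, at least 4 of Cnr1, at most 1 of Slc17a7, and none of Sst, Pvalb, Vip or Lamp5. This left 85 of 114512 nuclei (0.0742%), or 1.69% of the 5037 GABAergic nuclei, meaning nuclei with at least 2 UMIs of Gad1 and Gad2 together and at most 1 of Slc17a7. Since the nuclei were selected on these 8 genes, the levels of the 8 genes in them are given without a test, and so is every comparison of their other genes with those of other interneurons.

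The PFC of 16 male mice, 22 weeks old, had been dissected and frozen, with 4 mice in each of 4 groups. WT control and 3xTg-AD control mice breathed air and received pyrazole, an inhibitor of alcohol dehydrogenase, in saline. WT alcohol and 3xTg-AD alcohol mice received ethanol with pyrazole and were then exposed to intermittent alcohol vapor. Per the paper, exposure ran in repeated weekly cycles. Tissue was taken more than a week after the last exposure, following a water maze test of memory. WT mice were of the B6;129 strain. 3xTg-AD mice, on the same background, carry, among other alterations, mutant human APP and tau transgenes under the neuronal Thy1 promoter.

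Cnr1 (chromosome 4, 33924593 to 33948831 of mm10, plus strand) encodes the CB1 cannabinoid receptor, a Gi-coupled receptor that sits mainly on axon terminals. Endocannabinoids such as 2-arachidonoylglycerol are made in the postsynaptic neuron, among others by the diacylglycerol lipase Dagla, travel back across the synapse, and lower transmitter release through this receptor until they are broken down, by Mgll in the terminal and by Faah. In the cortex the receptor is densest on the axons of interneurons that contain cholecystokinin (Cck). These are basket cells around the cell bodies of pyramidal neurons and cells that target dendrites, they arise in the caudal ganglionic eminence, and recent atlases call them the Sncg class.

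The cells were few and spread over nearly all mice. The 85 nuclei came from 15 mice and together held 240611 UMIs, with 878 to 8451 UMIs in a nucleus. Mouse 6 of the WT alcohol group gave 16 of them (18.8%), mouse 21 of the 3xTg-AD control group gave none, and the others gave 3 to 7 each. Their median was 2538 UMIs and 1488 genes per nucleus against 1761 UMIs and 1160 genes in the other 4952 GABAergic nuclei. A minimum of 4 Cnr1 UMIs is reached more easily in a deep nucleus, so this difference in depth is partly set by how the nuclei were chosen. No member shared its barcode with a member from another library, and 3 shared it with some nucleus of another library. Each mouse was 1 library, and p-values here measure only the spread between these mice.

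By the selection, which used the Cnr1 count, the Cnr1-rich interneurons held 706 of the 3142 Cnr1 UMIs found in GABAergic nuclei, which is 22.5%, with 4 to 33 UMIs in a nucleus and a median of 6. At the edge of the selection, 18 nuclei held exactly 4 and 20 held 5, while 30 nuclei that met every other condition held 3 and were not taken. Cnr1 was not absent from the rest: 275 otherwise similar nuclei had 1 UMI and 53 had 2.

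Genes that the selection did not use were checked against the name of the class. Adarb2, an RNA-binding protein of the ADAR family that marks interneurons from the caudal ganglionic eminence, was detected in 83 of the 85 nuclei (97.6%, exact 95% interval 91.8 to 99.7%). It was detected in 82.7% of Vip nuclei, in 67.3% of Lamp5 nuclei, in 23.1% of all other GABAergic nuclei, Vip and Lamp5 included, in 2.84% of excitatory nuclei, defined by at least 3 UMIs of Slc17a7 and none of Gad1 or Gad2, and in 1.85% of astrocyte nuclei, defined by Aqp4 and Slc1a3 without Gad1, Gad2 or Slc17a7. Median depth was 2890.5 UMIs in the excitatory and 1317 in the astrocyte nuclei, and the excitatory nuclei were thus deeper than the Cnr1-rich interneurons. Vip (1645 UMIs) and Lamp5 nuclei (2036.5 UMIs) were shallower than the Cnr1-rich interneurons (2538 UMIs). The part of depth in their shares was not tested. Lhx6, the transcription factor of interneurons from the medial ganglionic eminence, was found in 0 of 85 nuclei, which allows a share of nuclei with a UMI of up to 3.53% by a limit of 3 counts and 4.25% by the exact interval. This limits detection and not expression, since Lhx6 was detected in 22.4% of Sst nuclei, and 1.08% of excitatory nuclei also had a UMI. The selection left out every nucleus with a UMI of Sst or Pvalb, which mark medial interneurons. A low share of Lhx6 was thus partly set in advance. All intervals and limits on shares cover counting error only.

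The neuropeptide and the gene that give the class its names were less informative. Cck was detected in 78 of 85 nuclei (91.8%), but also in 71.6% of the other GABAergic, 77.3% of excitatory and 68.8% of astrocyte nuclei. Astrocytes are not known for making Cck, so a Cck UMI in a single nucleus of these libraries could not be told from free RNA. After each nucleus was thinned to 1500 UMIs the share was 77.8% in the Cnr1-rich interneurons, where 4 nuclei were too shallow, and 58.0% in the other GABAergic nuclei, where 1918 were too shallow. Sncg, gamma-synuclein, was detected in 2 of 85 nuclei (2.35%) and in 0.222% of other GABAergic nuclei, so it was close to undetected in every class. Slc17a8, the vesicular glutamate transporter VGLUT3 that some Cck basket cells carry, was found in 7 nuclei (8.24%) against 0.343% of the other GABAergic nuclei and 0.103% of astrocyte nuclei. Since Sncg was near 0 and Cck was everywhere, the nuclei are called Cnr1-rich interneurons here and not Sncg cells.

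The summed levels of excitatory neuron and astrocyte markers had lower medians over mice in the Cnr1-rich interneurons (1024 and 538 CPM) than in the other GABAergic nuclei (1851 and 1236 CPM), with overlapping ranges. Of 12 excitatory neuron markers, 6 were measured, meaning that they averaged at least 50 CPM (counts scaled to the same total in every sum) in either class, and the summed level of the 12 was 592 to 1537 CPM per mouse against 1350 to 2806 CPM. Camk2a was detected in 44.7% of the Cnr1-rich interneurons and 59.5% of the other GABAergic nuclei. The 8 astrocyte markers summed to between 98.6 and 1058 CPM against 534 to 1610 CPM, and no microglia, oligodendrocyte precursor or vascular marker averaged 50 CPM in either class. Of 7 oligodendrocyte markers 2 were measured, with summed levels of 0 to 1144 CPM against 205 to 581 CPM. The summed oligodendrocyte precursor markers had a median of 81.9 CPM against 71.6 CPM and reached 196 against 150 CPM, and vascular markers reached 252 against 115 CPM.

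A graded change in other genes ran along the Cnr1 count, on both sides of the minimum that defined the class. Among GABAergic nuclei without Sst, Pvalb, Vip and Lamp5, Adarb2 was detected in 14.5% of the 1526 nuclei with no Cnr1 UMI, in 24.7% with 1, in 56.6% with 2 and in 83.3% with 3. In the selected nuclei it was detected in 94.4% of those with 4 Cnr1 UMIs, 95% with 5 and 100% of the 47 with 6 or more. Adarb2 was therefore detected nearly as often just outside the minimum as just inside it. In CPM of pooled UMIs it was at 1576 with 3 Cnr1 UMIs and 2392 with 4.

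Npas1, a transcription factor of caudal interneurons, followed later along the same axis. It was detected in 2.49% of nuclei without Cnr1, in 26.7% of those with 3 UMIs, in 33.3% with 4, in 60% with 5 and in 93.3% of the 15 nuclei with 12 to 33. Col25a1, a membrane-bound collagen, was at 5.31% without Cnr1, 23.3% with 3 UMIs, 27.8% with 4, 60% with 5 and 86.7% in the last range. Frem1, an extracellular matrix gene noticed after its values were seen, went from 0.590% to 10.0% with 3 UMIs, 11.1% with 4 and 86.7% at the top. These genes thus differed less between 3 and 4 UMIs than between 4 UMIs and the upper ranges. In CPM of pooled UMIs, Npas1 was at 186 with 3 and 222 with 4. From 5 UMIs on it was at 551, 516, 651 and 583 CPM, while its detection went from 60% to 93.3%. Col25a1 was at 1082, 762, 1478 and 1233 CPM and Frem1 at 318, 295, 282 and 583 CPM in the same ranges.

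Reln, a secreted glycoprotein of several interneuron types, took another course. It was detected in 8.72% of nuclei without Cnr1, in 43.4% with 2 UMIs, in 46.7% with 3 and in 44.4% with 4. Its course was then uneven, with 20% at 5 UMIs, 42.9% at 6 to 7 and 44.4% at 8 to 11, but 1 of the 15 nuclei with 12 to 33 Cnr1 UMIs (6.67%). Nxph1, a neurexin ligand of medial interneurons, was detected in 20.8 to 25.5% of nuclei with 0 to 3 Cnr1 UMIs and in 1 of the 85 selected nuclei. Depth was higher along the same axis, from a median of 1474.5 UMIs at 0 Cnr1 UMIs and 1991.5 at 3 to 1775 at 4 and 3643 in the last range. The part of depth in these shares was not tested.

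**Figure D1:**
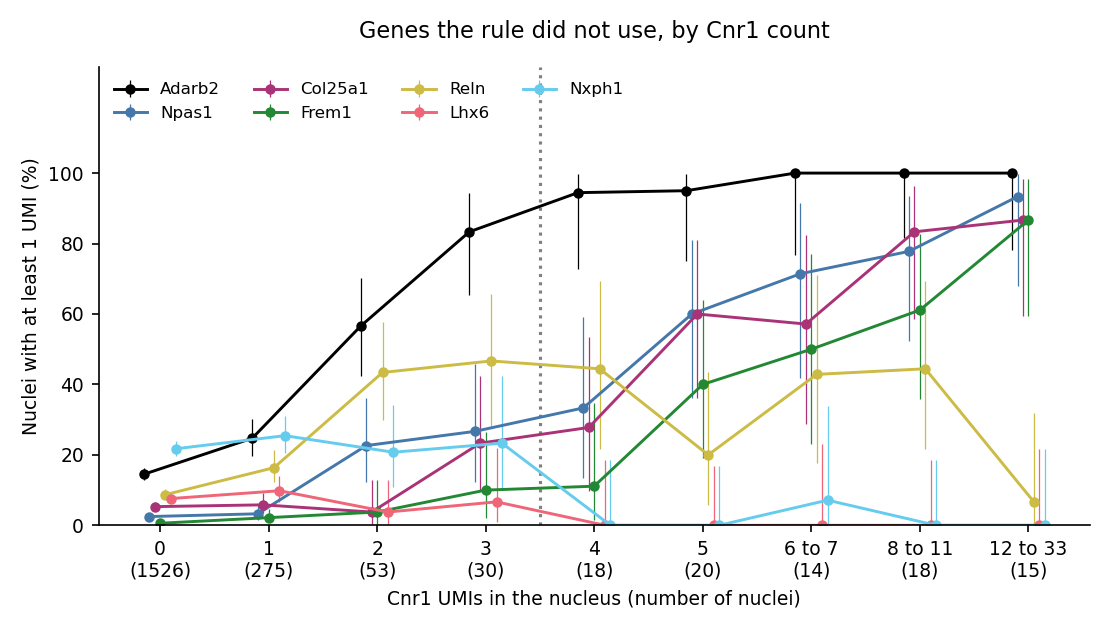
Percent of GABAergic nuclei without Sst, Pvalb, Vip and Lamp5 in which a gene had at least 1 UMI (y axis), by the Cnr1 UMI count of the nucleus (x axis), pooled over mice. Bars are exact 95% intervals and the dotted line is the minimum of 4 Cnr1 UMIs. Adarb2 reaches 83.3% before the line, Npas1, Col25a1 and Frem1 climb mostly beyond it, and Reln drops to 6.67% in the last range.

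Levels were then compared with those in other interneurons, within the 15 mice that had at least 3 Cnr1-rich nuclei. Levels are CPM of the summed UMIs of a class in a mouse, given as mean ± SD over mice, and ratios are of these means. Among 4906 genes measured in this comparison, 5.32% were at least 2-fold higher and 8.76% at least 2-fold lower in the Cnr1-rich interneurons than in the other GABAergic nuclei. The median log2 ratio over these genes was -0.10. The 8 genes of the selection were left out. A gene that reaches the minimum of 50 CPM in a single class is likely to be higher there. Of the 4906 genes, 589 reached it only in the Cnr1-rich interneurons and 795 only in the other GABAergic nuclei, so the counts of lists below describe the genes and support nothing.

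Of the 16 genes known from the Cck class, 12 were measured, 10 were at least 2-fold higher and none was 2-fold lower. The minimum was reached only in the Cnr1-rich interneurons by 7 of the 12, and 6 of these are among the 10. Of the 5 that also reached it in the other GABAergic nuclei, 4 were at least 2-fold higher (Adarb2, Npas1, Col25a1 and Cxcl14). Adarb2 had 1954 CPM in the lowest mouse, a median of 2852 and 4190 in the highest, against 279 to 513 CPM in the other GABAergic nuclei of the same mice. The ranges did not overlap, and the ratio of means was 2.91 on the log2 scale. Npas1 had 171, 559 and 1088 CPM as its lowest, median and highest value against 10.6 to 91.0 CPM, again without overlap, with a log2 ratio of 3.11.

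Some genes of the list were high on average but uneven between mice. Col25a1 had 0, 878 and 1703 CPM as lowest, median and highest, against 24.8 to 119 CPM in the other GABAergic nuclei, and it was higher in 14 of 15 mice with a log2 ratio of 3.62. The mouse at 0 was WT control 26, with 3 nuclei. Cadps2, which acts in the release of dense-core vesicles, averaged 501 ± 341 CPM against 39.3 ± 11.6 (log2 ratio 3.67, higher in 14 mice). Rgs12, a regulator of G-protein signalling, averaged 286 ± 176 CPM against 41.1 ± 7.8, and Kctd12, an auxiliary subunit of GABA-B receptors, 234 ± 171 against 37.8 ± 10.7.

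The chemokine gene Cxcl14 averaged 219 ± 153 CPM against 62.8 ± 20.3 (higher in 14 mice), and the transcription factors Nr2f2 and Prox1 averaged 116 ± 104 against 26.1 ± 8.6 and 110 ± 135 against 46.7 ± 11.5. Slc17a8 averaged 82.5 ± 167 CPM against 3.40 ± 4.53, from 20 UMIs in nuclei of 5 mice. Cck was only moderately higher, at 1100 ± 408 CPM against 755 ± 225 (log2 ratio 0.54, higher in 13 of 15 mice). As described above, a Cck UMI in a single nucleus could not be told from free RNA. Cntnap4, a neurexin-family adhesion protein, had 66.1 ± 109 CPM against 47.9 ± 15.7. The serotonin receptor channel Htr3a, with 11 UMIs, averaged 41.0 ± 56.2 CPM against 7.07 ± 4.84, and it, Sncg (2 UMIs), Sp8 (3 UMIs) and Nptx2 (1 UMI) were not measured by the minimum of 50 CPM. The list and the class name were both chosen with results of these nuclei known, so its count is no independent evidence.

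**Figure D2:**
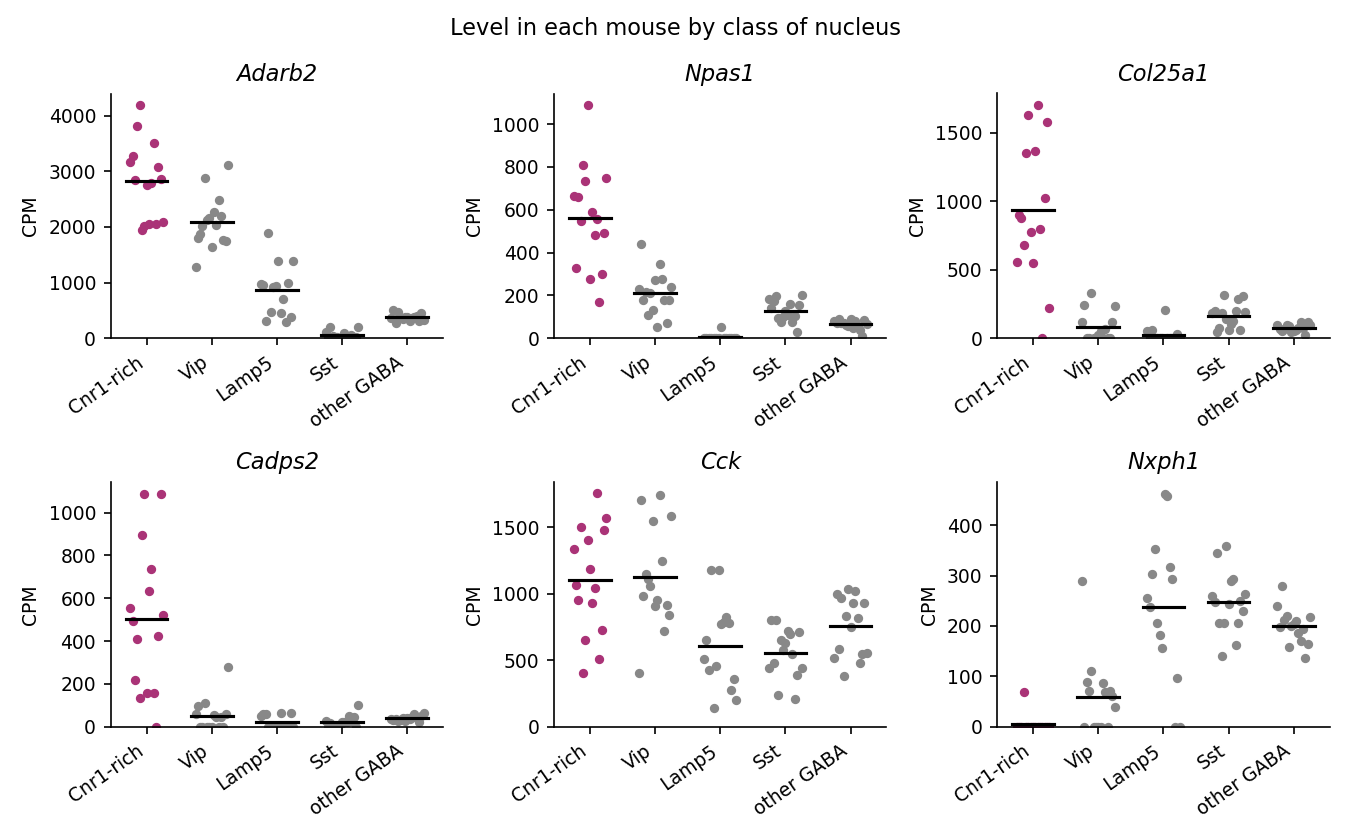
CPM of 6 genes per mouse (points, y axis) in the Cnr1-rich interneurons and in Vip, Lamp5, Sst and all other GABAergic nuclei, for mice with at least 3 Cnr1-rich and 3 comparison nuclei. Lines are means. Adarb2 and Npas1 are separated from the other GABAergic nuclei in every mouse, Col25a1 and Cadps2 in 14 mice, and Cck overlaps all classes.

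Over all measured genes, those higher in every one of the 15 mice were led by Npas1 and Adarb2, both of that list, and by Slc44a5, Kcnn2 and Nrxn3, which are outside it. Slc44a5, a choline transporter-like protein, averaged 204 ± 83.5 CPM against 24.0 ± 7.4, and so reached the minimum only in the Cnr1-rich interneurons. Kcnn2, the small-conductance calcium-activated potassium channel SK2, averaged 620 ± 311 CPM against 166 ± 25. Nrxn3, a presynaptic neurexin, averaged 4051 ± 1162 CPM against 1158 ± 249, a log2 ratio of 1.81, but it was not 2-fold higher than in Vip nuclei. The others were Syne1 (log2 ratio 1.52), Lgals8 (1.47), the kainate receptor partner Neto1 (1.45), Csmd3 (1.26) and Pclo (1.21), which encodes the active-zone scaffold Piccolo.

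Genes lower in every mouse were led by Nxph1, with 1 UMI in the Cnr1-rich interneurons against 199 ± 34.8 CPM in the others. Fam135b, Adgrl2, Gabrg3, Ndst3, Tmem44, Tac1 and Sox6 had 1 to 3 UMIs each, and Coro6 had 4, against 81.8 to 156 CPM in the other GABAergic nuclei. Nefl, the neurofilament light chain, averaged 25.1 ± 42.0 CPM against 182 ± 41.2 (log2 ratio -2.85). All of these lower genes reached the minimum of 50 CPM only in the other GABAergic nuclei. Being lower in every mouse was thus likely from that minimum alone. Of 12 genes of medial interneurons, 8 were measured and 6 were at least 2-fold lower (Lhx6, Tac1, Nxph1, Sox6, Kcnc2 and Satb1), 5 of the 6 having reached the minimum only in the other GABAergic nuclei. The selection left out nuclei with a UMI of Sst or Pvalb, while the other GABAergic nuclei kept them. Lower levels of medial genes were thus partly set in advance. Of 11 genes of caudal interneurons, 8 were measured and these 8 were at least 2-fold higher, 2 of them (Nr2f2 and Prox1) having reached the minimum only in the Cnr1-rich interneurons. Against Vip nuclei, defined below, only 2 of the 8 were at least 2-fold higher (Npas1 and Npas3), with a median log2 ratio of 0.41. Of the 8, 5 are also on the Cck list, and the other 3 were Npas3 (252 ± 124 CPM against 57.2 ± 14.8), Igf1 (225 ± 157 against 53.6 ± 13) and Zbtb16 (132 ± 112 against 51.0 ± 9.1).

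The machinery of endocannabinoid signalling around the receptor was not higher as a whole. Of 29 genes in the list, which leaves out Cnr1 itself, 21 were measured, 2 were at least 2-fold higher, 5 at least 2-fold lower, and the median log2 ratio was 0.03, close to that of all genes. The minimum was reached only in the other GABAergic nuclei by 2 of the 5. Enzymes that make or degrade the ligands were near the level of other GABAergic nuclei. Mgll averaged 197 ± 147 CPM against 150 ± 31.6, Faah 89.8 ± 84.5 against 68.4 ± 10.9, Abhd6 81.1 ± 71.2 against 58.9 ± 13.9 and Dagla 39.1 ± 67.8 against 40.3 ± 13.5. Each of these 4 was higher in 4 to 9 of the 15 mice. Daglb had 4 UMIs, Napepld 1, and Abhd4, Ptgs2, Gpr55 and Trpv1 had none.

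Downstream of the receptor, the pores of presynaptic calcium channels lay on opposite sides of the other GABAergic nuclei. Cacna1b encodes the pore of the N-type calcium channel, which CB1 inhibits at Cck terminals, and it had 171, 362 and 619 CPM as its lowest, median and highest value, higher than in the other GABAergic nuclei of the same mouse in 15 of 15 mice (log2 ratio 1.14). Cacna1a, the pore of the P/Q-type channel that serves release from Pvalb terminals, was lower at 99.4 ± 95.8 CPM against 264 ± 37.2, higher in 1 of 15 mice (log2 ratio -1.41). Cacna1b was also 2-fold higher than in Lamp5 nuclei, but not 2-fold higher than in Vip or Sst nuclei. Cacna1a was at least 2-fold lower than in each of these classes. Kcnj6, a G-protein-gated potassium channel, averaged 115 ± 94.7 CPM against 53.2 ± 12.5 and was higher in 12 mice, and its partner Kcnj3 averaged 125 ± 121 against 93.4 ± 18.3. Of the G proteins, Gnao1 averaged 358 ± 162 CPM against 285 ± 34.8, and Gnai1 127 ± 147 against 94.9 ± 21.2.

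Grm5, a group I glutamate receptor that drives ligand production in postsynaptic cells, had 68.2, 181 and 341 CPM as lowest, median and highest against 413 to 956 CPM in the other GABAergic nuclei, a gap without overlap (log2 ratio -1.55). Cnrip1, which binds the tail of the CB1 receptor, averaged 51.9 ± 51.2 CPM against 113 ± 22.4 and was higher in 2 of 15 mice. Sgip1, an endocytic protein that also binds the receptor, averaged 291 ± 187 CPM against 327 ± 49.6. Of the arrestins, Arrb1 averaged 86.0 ± 74.0 against 84.5 ± 12.9 and Arrb2 25.4 ± 48.4 against 56.2 ± 7.1, and other genes of the list (Gde1, Plcb1, Plcb4, Gnai2, Gnai3, Abhd12 and Rims1) lay between 36.1 and 229 CPM, none of them 2-fold different.

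Other receptors and channels showed a mixed picture. Of 17 measured glutamate receptor genes none was 2-fold higher and 7 were 2-fold lower, among them the NMDA receptor subunit Grin2a (140 ± 132 CPM against 507 ± 81.2, lower in 15 of 15 mice) and the AMPA receptor subunit Gria3 (235 ± 168 against 693 ± 75.3, lower in 15). The minimum was reached only in the other GABAergic nuclei by 4 of the 7. Grin2a and Gria3 were not 2-fold lower than in Vip nuclei. Grin2b averaged 1080 ± 411 CPM against 882 ± 79.2. Of 10 measured GABA-A receptor genes none was higher and 3 were lower (Gabra4, Gabrg3 and Gabra3), and these 3 reached the minimum only in the other GABAergic nuclei. Of 18 potassium channel genes 5 were higher (Kcnq5, Kcnd3, Kcnip1, Kcnj6 and Kcnn2) and 2 lower, Kcnc2 among them, and of 14 calcium channel genes 3 were higher (Cacna1b, Cacnb2 and Cacna2d3) and 5 lower. Of these higher genes, only Kcnn2 was also 2-fold higher than in Vip nuclei. Kcnq5 reached the minimum only in the Cnr1-rich interneurons, and 1 of the 5 lower calcium channel genes only in the other GABAergic nuclei. Kcnc2, a channel of fast-spiking cells, averaged 74.5 ± 108 CPM against 189 ± 45.4.

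Receptors for neuromodulators and peptides added a few genes. Npy1r, a neuropeptide Y receptor, averaged 152 ± 93.6 CPM against 38.1 ± 10.4 (higher in 12 of 15 mice), and Htr2c, a serotonin receptor, 150 ± 168 against 31.4 ± 10.9, higher in 8 mice only. Both reached the minimum only in the Cnr1-rich interneurons, and neither was 2-fold higher than in Vip nuclei. Among 9 measured neuropeptides, Tac2, the neurokinin B precursor, was higher at 183 ± 183 CPM against 37.7 ± 15.5, and Npy averaged 198 ± 184 against 366 ± 134. Of 14 measured genes for making and releasing GABA, Dlx6os1 (1520 ± 750 CPM against 411 ± 69.4) and Dlx1 (282 ± 190 against 124 ± 49.6) were 2-fold higher. Neither was 2-fold higher than in Vip or Lamp5 nuclei. Slc32a1, the vesicular GABA transporter, averaged 164 ± 121 CPM against 134 ± 45.4.

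Vip nuclei, which also arise in the caudal ganglionic eminence, were 162 GABAergic nuclei with at least 2 Vip UMIs and no Sst, Pvalb or Lamp5. Here 6.68% of 4984 genes were at least 2-fold higher and 10.5% at least 2-fold lower in the Cnr1-rich interneurons. Of the 12 measured Cck class genes 5 were 2-fold higher, 2 of them at the minimum only in the Cnr1-rich interneurons, and none was lower. The higher genes were led by Col25a1 (935 ± 510 CPM against 79.4 in Vip nuclei) and Cadps2 (501 ± 341 against 49.6). Adarb2 was closer, at 2832 ± 700 CPM against 2091 CPM, higher in 10 of 15 mice, and Cck was at 1100 ± 408 against 1123 CPM. Neto1 was the only measured gene higher than in Vip nuclei in all 15 mice (433 ± 164 CPM against 115). Lower in all 15 were the receptor phosphatase Ptprd (261 ± 147 against 1373 ± 436), the kinase Cit (log2 ratio -1.41), the BDNF receptor Ntrk2 (-1.0) and the noncoding Mir100hg (-0.68). Of 21 measured endocannabinoid genes, 1 was 2-fold higher than in Vip nuclei (Abhd6, at the minimum only in the Cnr1-rich interneurons) and 6 were 2-fold lower.

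Lamp5 nuclei, 98 in number, were chosen in the same way. Over 5124 genes, 7.53% were at least 2-fold higher and 14.1% at least 2-fold lower in the Cnr1-rich interneurons, in the 14 mice with 3 or more of both. Of the 12 measured Cck class genes 10 were 2-fold higher, 7 of them at the minimum only in the Cnr1-rich interneurons. Npas1 was at 1 UMI in all Lamp5 nuclei, and Col19a1 (log2 ratio 4.27), Brinp3 (3.96), Cntnap5a (3.11), Nrxn3 (1.90), Pclo (1.85), Adarb2 (1.74), Zeb2 (1.12), Ogt (1.0) and Pitpnc1, with 3 UMIs in the Lamp5 nuclei, completed those higher in every mouse. Sv2c, a synaptic vesicle protein, was at 0 UMIs in the Cnr1-rich interneurons and at 391 ± 385 CPM in the Lamp5 nuclei. Npas1 and Sv2c thus reached the minimum of 50 CPM in a single class, where a gene is likely to be higher. Ndnf, a neurogliaform marker, averaged 58.8 ± 110 CPM against 404 ± 232, and Grin2a 140 ± 132 against 1227 ± 317. The others lower in every mouse were Coro6, Egfr, Rimbp2, Nyap2, Unc5c, Cntn5 and Il1rapl1, with log2 ratios of -3.92 to -2.27.

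Sst nuclei numbered 629. Of 4866 genes, 6.56% were at least 2-fold higher and 7.75% at least 2-fold lower in the Cnr1-rich interneurons. Adarb2 averaged 51.5 ± 68.0 CPM in the Sst nuclei, a log2 ratio of 5.78 in favour of the Cnr1-rich interneurons, followed by Kcnn2 (log2 ratio 3.32), Slc44a5 (3.14), the receptor kinase Kit (2.52), Nfib (2.36), Npas1 (2.14), Csmd3 (2.03), Syne1 (1.73), Zeb2 (1.4) and Kctd16 (1.38). Genes lower than in Sst nuclei in every mouse included Nxph1, Unc13c, Crhbp, Mgat4c, Sox6, Adgrl2, Utrn, Tmem44 and Fam135b, each with 1 to 5 UMIs in the Cnr1-rich interneurons against 124 to 247 CPM. With so few UMIs in 1 class, genes that pass through the other are likely to be lower in every mouse. Pvalb nuclei numbered 25, and 3 mice held 3 of them, so no levels are compared with them.

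The 85 nuclei were not alike among themselves. Col25a1 was detected in 53 of them, from 14 mice, and not in 32, from 13 mice. Frem1 was detected in 36 of the 53 and 5 of the 32, at 412 against 132 CPM over the pooled nuclei. Reln went the other way, detected in 13 of the 53 and 14 of the 32, at 128 against 658 CPM. Cadps2 was at 639 against 234 CPM and the peptide gene Tac2 at 197 against 58.5 CPM, while Adarb2 (2897 against 2648 CPM) and Cck (1103 against 1141 CPM) were nearly level.

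Depth and the Cnr1 count differed between the same nuclei. Median depth was 2896 UMIs with Col25a1 and 1932.5 without it, and the median Cnr1 count was 8 and 5. The part of depth in these differences was not tested.

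The 7 nuclei with Slc17a8 came from 5 mice and also held Col25a1, Frem1 and Npas1, all 7 of them. Their Cnr1 level was 3844 CPM against 2831 CPM in the 78 without Slc17a8, their Col25a1 level 1595 against 995 CPM, and 1 of the 7 held Reln. At the other end, 14 of the 85 nuclei held none of Col25a1, Frem1, Npas1 and Cadps2, and 2 held no Adarb2. These 4 genes were picked with their values in view, and the nuclei were neither clustered nor given names.

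**Figure D3:**
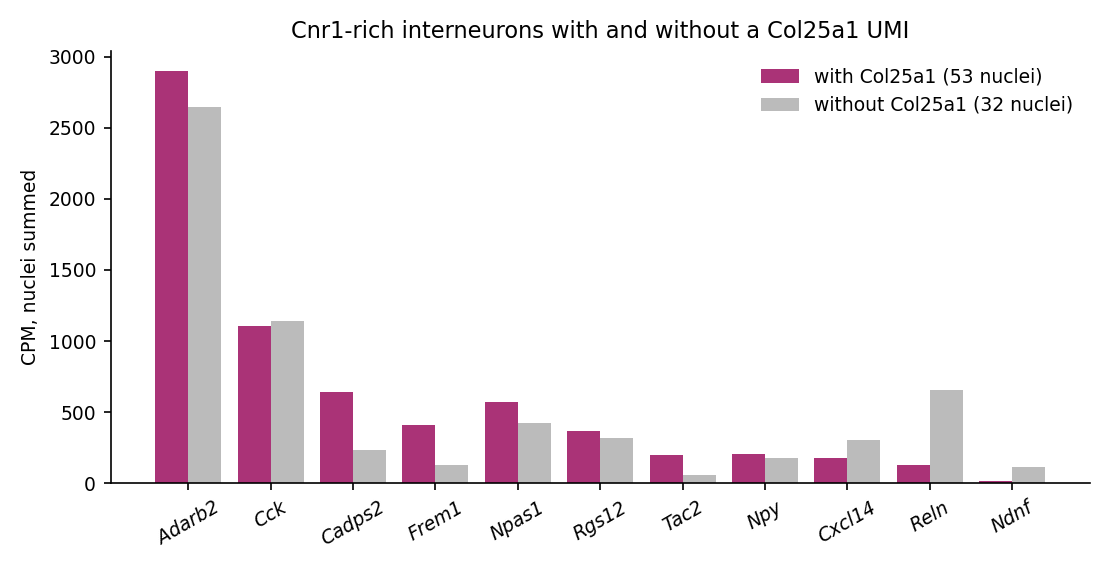
Level of 11 genes in CPM of pooled UMIs (bars, y axis from 0) in the 53 Cnr1-rich interneurons with a Col25a1 UMI and the 32 without one. Frem1, Cadps2 and Tac2 are higher with Col25a1, Reln is higher without it (658 against 128 CPM), and Adarb2 and Cck are nearly level. Pooled bars have no error over mice.

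Genotype and alcohol were first compared by how many of these cells each mouse had. As a percent of GABAergic nuclei, the 4 WT control mice (26, 27, 28 and 36) had 1.08, 1.23, 1.99 and 1.94%. The 4 WT alcohol mice (6, 7, 17 and 18) had 3.66, 2.13, 1.32 and 1.25%. The 3xTg-AD control mice (12, 13, 14 and 21) had 1.59, 1.6, 1.21 and 0%, where 0 of 199 nuclei allows a share of up to 1.51%. The 3xTg-AD alcohol mice (4, 31, 33 and 34) had 1.59, 1.65, 1.19 and 3.13%. All 4 groups overlapped, and the 2 highest mice were 1 in each alcohol group.

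Group means were 1.56 ± 0.47% (SD, n = 4) in WT control, 2.09 ± 1.12% in WT alcohol, 1.1 ± 0.76% in 3xTg-AD control and 1.89 ± 0.85% in 3xTg-AD alcohol mice. Alcohol-exposed mice exceeded air-exposed mice by 0.659 percentage points (two-sided exact permutation test, p = 0.135, adjusted p = 0.551 over 5 comparisons), and 3xTg-AD mice were below WT mice by 0.332 points (exact p = 0.440, adjusted p = 0.551). Against WT control, exact p was 0.400 for 3xTg-AD control, 0.400 for WT alcohol and 0.600 for 3xTg-AD alcohol, where 4 against 4 mice cannot give less than 0.0286. None of the 5 comparisons passed. Without WT alcohol mouse 6 the difference with alcohol was 0.420 points, WT alcohol was 0.00756 points from WT control, and the genotype difference was -0.0699 points. The genotype difference was -0.119 points without 3xTg-AD control mouse 21 and -0.565 points without 3xTg-AD alcohol mouse 34. GABAergic nuclei were also thinned to 1500 UMIs, which left out 359 to 619 shallow ones a group. All conditions were then applied anew to the thinned counts, so a nucleus taken here need not be among the 85. This gave 12, 9, 4 and 6 nuclei in the groups in the same order. They came from 474, 591, 340 and 504 nuclei that were still GABAergic by the thinned counts. The difference with alcohol then turned to -0.535 points (exact permutation p = 0.548) and the genotype difference was -0.985 points (exact p = 0.256). Against WT control, 3xTg-AD control was then at -1.74 points, WT alcohol at -1.29 and 3xTg-AD alcohol at -1.52, with exact p of 0.143, 0.343 and 0.286. The thinned values leaned on WT control mouse 28, at 5.88% from 4 of 68 nuclei. Without it, in an analysis added after the data were seen, the difference with alcohol was 0.00828 points, that with genotype -0.473, and those from WT control -0.759 for 3xTg-AD control, -0.310 for WT alcohol and -0.541 for 3xTg-AD alcohol.

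A looser minimum of 3 Cnr1 UMIs, tried after the data were seen, gave 115 nuclei. Shares were then 2.04 to 3.19% in the WT control and 0.503 to 2.0% in the 3xTg-AD control mice, which did not overlap (difference -1.17 points, exact permutation p = 0.0286, the smallest possible, adjusted p = 0.143). Averaged over exposure, the genotype difference at this minimum was -0.452 points (exact p = 0.375).

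**Figure D4:**
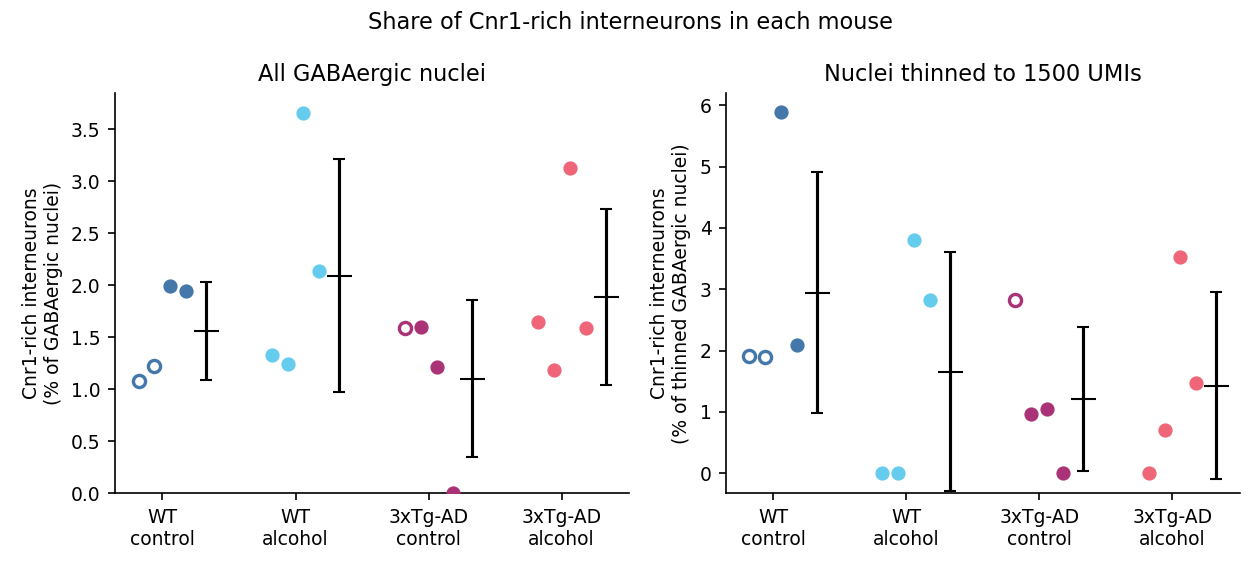
Cnr1-rich interneurons as a percent of GABAergic nuclei in each of 16 mice (points), with all UMIs (left) and after thinning nuclei to 1500 UMIs (right). Lines and bars are mean ± SD of 4 mice, and open circles mark the 3 mice with Gm42418 above 1% of UMIs. The groups overlap in both panels, and the order of the means differs between them.

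The level of Cnr1 that does not depend on the selection was taken over all GABAergic nuclei. It was 194, 146, 387 and 378 CPM in the WT control mice and 569, 387, 340 and 320 CPM in the WT alcohol mice, in the order of mice above. It was 258, 244, 341 and 204 CPM in the 3xTg-AD control and 302, 273, 294 and 351 CPM in the 3xTg-AD alcohol mice. WT control mice fell into a low and a high pair, and the other groups lay mostly between them.

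By edgeR's quasi-likelihood test over 9570 genes, Cnr1 differed with alcohol by 0.37 ± 0.16 on the log2 scale (SE, 8 against 8 mice, adjusted p = 0.387) and with the 3xTg-AD genotype by -0.24 ± 0.16 (adjusted p = 0.730). WT alcohol against WT control gave 0.53 ± 0.22 (adjusted p = 0.438) and 3xTg-AD control against WT control -0.08 ± 0.23 (adjusted p = 0.986). Neither these nor the interaction (-0.32 ± 0.31, adjusted p = 0.994) passed. Single mice moved these values. Without WT alcohol mouse 6, WT alcohol against WT control was 0.33, the genotype difference -0.14 and the interaction -0.13. Without WT control mouse 27 the first was 0.33 and the interaction -0.13, and without WT control mouse 36 the genotype difference was -0.15 and the interaction -0.51. The genotype difference was -0.16 and the interaction -0.49 without WT control mouse 28, and the interaction was -0.20 without 3xTg-AD control mouse 14. In the same fits 0.251% of genes were called for alcohol, 0.606% for genotype, 0.157% for 3xTg-AD control, 0.0522% for WT alcohol and 0.742% for 3xTg-AD alcohol, each against WT control in the last 3.

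The low pair of WT control mice for Cnr1, 26 and 27, are also 2 of the 3 mice in which Gm42418, a transcript that overlaps a ribosomal RNA repeat, took 2.90, 1.94 and 1.79% of all UMIs (the third is 3xTg-AD control mouse 12), against 0.206 to 0.425% in the other 13 mice. Without these 3 mice, an analysis added after the data were seen, the genotype difference of Cnr1 was -0.46 ± 0.13 (edgeR, adjusted p = 0.0734) and the alcohol difference 0.17 ± 0.13 (adjusted p = 0.696). Against WT control, the difference changed from 0.13 to -0.29 for 3xTg-AD alcohol, from 0.53 to 0.10 for WT alcohol (edgeR, adjusted p = 0.931) and from -0.08 to -0.53 for 3xTg-AD control (edgeR, adjusted p = 0.694). The part of Gm42418 in the Cnr1 level was not tested beyond leaving the mice out.

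Of the genes that accompany Cnr1, 25 of the 29 endocannabinoid and 11 of the 16 Cck class genes were tested by edgeR in all GABAergic nuclei, and none was called in any contrast, with 1 to 6 of them at an unadjusted p under 0.05. Over all 9570 genes, only 0.0522 to 0.742% were called in the contrasts given above. At that rate so short a list would hold few calls or none, so neither count is a result about these genes. The largest differences with alcohol in the endocannabinoid list were Sgip1 (0.32 ± 0.11 on the log2 scale, adjusted p = 0.228) and Cnrip1 (0.26 ± 0.12, adjusted p = 0.430). Both encode proteins that bind the CB1 receptor, and neither passed.

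**Figure D5:**
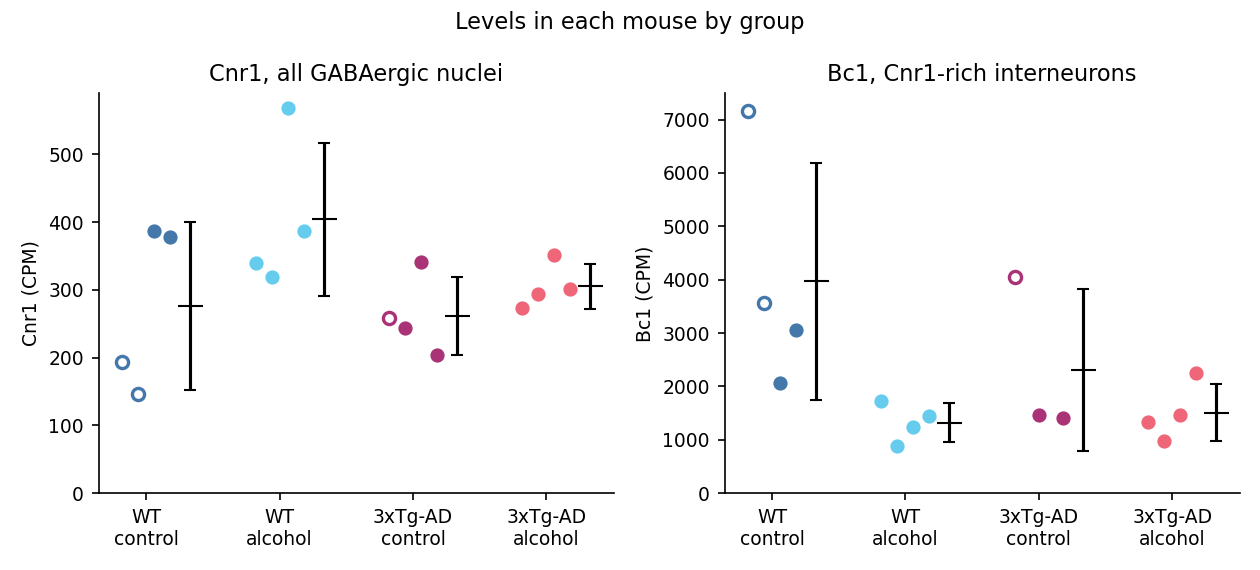
Cnr1 in all GABAergic nuclei (left, 16 mice) and Bc1 in the Cnr1-rich interneurons (right, 15 mice), in CPM per mouse (points), by group. Lines and bars are mean ± SD, and open circles mark the 3 mice with Gm42418 above 1% of UMIs. For Cnr1 the open circles of the WT control group lie lowest in that group, and for Bc1 the open circles lie highest.

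Within the Cnr1-rich interneurons, expression was compared between groups on UMIs summed per mouse, in the 15 mice with at least 3 such nuclei (4, 4, 3 and 4 in the groups). The sums held few UMIs, and 103 genes passed the filter on low counts. By edgeR's quasi-likelihood test no gene passed in any of 8 contrasts, with 0.05 as the limit for the adjusted p (0% of 103 genes). At an unadjusted p under 0.05 there were 2 genes for 3xTg-AD control, 5 for WT alcohol and 10 for 3xTg-AD alcohol against WT control, 5 for alcohol within 3xTg-AD mice, 6 for genotype within alcohol mice, 8 for genotype, 5 for alcohol and 5 for the interaction. DESeq2 called 3 genes for WT alcohol (Bc1, Lars2 and Gm42418), 1 for 3xTg-AD alcohol (Gm42418) and 2 for alcohol (Lars2 and Gm42418), all lower, and 0 in the other contrasts.

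The class genes that could be tested did not pass. Of the 16 Cck class genes only Adarb2, Cck, Col25a1 and Cadps2 passed the filter on low counts, and of the endocannabinoid list none did. Adarb2 averaged 2520 ± 527 CPM in WT control, 2779 ± 596 in WT alcohol, 2722 ± 1272 in 3xTg-AD control (n = 3) and 3278 ± 403 in 3xTg-AD alcohol mice. By edgeR its alcohol difference was 0.27 ± 0.21 on the log2 scale (adjusted p = 0.802). Cck averaged 1071 ± 531, 1229 ± 367, 819 ± 518 and 1212 ± 250 CPM in the same order (alcohol 0.46 ± 0.27, adjusted p = 0.802).

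Col25a1 averaged 707 ± 729 CPM in WT control, 1106 ± 525 in WT alcohol, 1252 ± 434 in 3xTg-AD control and 754 ± 165 in 3xTg-AD alcohol mice. Its interaction was -1.53 ± 0.76 on the log2 scale (edgeR, adjusted p = 0.634), which did not pass. App, the mouse gene of the amyloid precursor protein, averaged 1194 ± 602, 1429 ± 385, 614 ± 611 and 1144 ± 516 CPM, with a genotype difference of -0.63 ± 0.33 (adjusted p = 0.602). The mouse gene of tau, Mapt, averaged 414 ± 89.0, 238 ± 53.9, 215 ± 250 and 324 ± 21.4 CPM. Mouse Thy1, the source of the transgene promoter, averaged 111 ± 91.9, 252 ± 201, 81.4 ± 141 and 262 ± 58.1 CPM. Reads of the human transgenes were not analysed here.

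Bc1, a neuronal noncoding RNA of dendrites, had the smallest adjusted p and is named after its values were seen. It had 7171, 3563, 2071 and 3063 CPM in the WT control mice and 1239, 1438, 1735 and 881 CPM in the WT alcohol mice, which did not overlap. It had 4055, 1465 and 1399 CPM in the 3xTg-AD control mice with members and 2250, 1332, 983 and 1463 CPM in the 3xTg-AD alcohol mice. WT alcohol against WT control gave -1.33 ± 0.35 on the log2 scale (edgeR, adjusted p = 0.0598). The 3 mice with Gm42418 above 1% had the 3 highest Bc1 levels, and over all GABAergic nuclei Bc1 was likewise 4502 and 2871 CPM in the first 2 of them and 4338 in 3xTg-AD control mouse 12, against 1365 to 1980 CPM in the other mice. Without these 3 mice edgeR called no gene in any contrast over 133 genes tested, with 5 to 16 genes at an unadjusted p under 0.05.

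Whether the genotype and alcohol differences in the Cnr1-rich interneurons departed from those in the other GABAergic nuclei was tested with the mouse as a block. By edgeR no gene of 8647 was called for either difference (0% and 0%), with 454 genes at an unadjusted p under 0.05 for genotype and 684 for alcohol, and DESeq2 was not run for this test. Restricted to the 103 genes, a choice made after the data were seen, the counts were 0 and 0, with 3 and 2 at an unadjusted p under 0.05. The number of cells limits this comparison: 3 to 16 nuclei of a mouse stood behind each sum.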

How the data were processed

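The authors sequenced 10x Genomics Chromium 3′ v3.1 libraries of nuclei, 1 per mouse, and aligned the reads to mm10 with Cell Ranger 6.1.1 and STAR, per the submitters' processing notes. Whether intronic reads were counted, and the filters on nuclei, are not given in the sources used here. The deposited table held raw UMI counts, not normalized, of 19999 genes in 114512 nuclei (216742276 UMIs, 9622031 to 17544364 per mouse). The sample name of each nucleus gave its mouse, and the labels gave the group.

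Members, gene lists and the rule for named genes were chosen with earlier results of these data known. Named genes were up to 20 called genes per contrast, the 10 highest and 10 lowest genes per class comparison among those measured (mean of at least 50 CPM in either class) and in the same direction in every mouse, and all genes of the Cck class, endocannabinoid and transgene lists, apart from a few genes that are not reported here. Frem1, Bc1, Pclo, Timp4 and Tmsb4x were named after their values were seen. No doublet caller was run. In its place the 14 members above the 95th percentile of UMIs of the GABAergic nuclei of their mouse were left out as an alternative.

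UMIs were summed per mouse and class. At least 10 member nuclei per mouse had been planned, but 1 mouse had them, so mice with at least 3 were used, and class levels were compared as ratios of mean CPM instead of scaled ratios within each mouse. Sst nuclei and all other GABAergic nuclei were added as comparison classes after the counts were seen. Where a class had fewer than 3 counts of a gene, the ratio used 3 counts. Sums were tested with edgeR 4.0.16 (TMM normalization, filter on low counts, robust quasi-likelihood fit of 4 group means, Benjamini-Hochberg adjustment over all genes tested) in R 4.3.3. DESeq2, the tool of the study, was an alternative, run here in version 1.42.0. Calls needed an adjusted p of at most 0.05. Shares were compared over mice with exact permutation tests (scipy 1.17.1). The test scripts were tested on simulated counts. Other alternatives were size factors, no filter, thresholds of the selection, thinning, a ribosomal RNA covariate, and leaving out mice. Gene positions are from GENCODE on mm10.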

Additional observations from a re-analysis of the deposited data

Results flagged for a closer look

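Among 58 sets of 4 mice examined (levels and shares within a group), 4 held 1 mouse that stood far from the other 3. Chance alone marks about 1 in 20 such sets.

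The share of Cnr1-rich interneurons after thinning to 1500 UMIs was 5.88% in WT control mouse 28, from 4 of 68 nuclei, against 1.90 to 2.10% in the other 3 WT control mice. Reln in the Cnr1-rich interneurons was 1878 CPM in WT control mouse 26 against 0 to 224 CPM in the other 3. It rested on 2 of the 3 members of that mouse, with up to 7 UMIs in 1 nucleus.

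Timp4, an inhibitor of matrix metalloproteinases, was 355 CPM in WT alcohol mouse 17 against 783 to 871 CPM in the other 3 WT alcohol mice. Tmsb4x, which encodes the actin-binding peptide thymosin beta-4, was 1718 CPM in WT control mouse 36 against 888 to 1024 CPM in the other 3.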

How the results depend on the processing

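The class is rare: 85 nuclei, a single library per mouse, and 103 testable genes limit group comparisons within the Cnr1-rich interneurons to the most abundant transcripts. Cck UMIs were also found in astrocyte nuclei, where their source was not tested, and neither was any part of free RNA in the ratios between classes. Of the values computed under other settings for results that answer a comparison, 408 kept their direction and their side of the threshold or, for counts, stayed the same or close, 46 moved and 15 reversed. The causes were not tested unless stated. No paired analysis was possible because the groups share no replicate numbers.

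Calls within the Cnr1-rich interneurons were 0 with edgeR as reported. DESeq2 gave 3 for WT alcohol against WT control, 1 for 3xTg-AD alcohol against WT control and 2 for alcohol. No filter on low counts, with 13115 genes, gave 1, 2, 2 and 1 for WT alcohol, 3xTg-AD alcohol, genotype and alcohol. Without nuclei of many UMIs there was 1 for WT alcohol and 1 for alcohol. With Slc17a7 at 0, 1 3xTg-AD control mouse was left, whose group has no spread of its own, so calls of that fit are not given. The ribosomal RNA covariate gave 2 for 3xTg-AD alcohol against WT alcohol. At least 3 Cnr1 UMIs, added after the data were seen, gave 2, 1 and 1 for WT alcohol, 3xTg-AD alcohol and alcohol. Leaving out each mouse gave 0 to 3 for WT alcohol, 0 to 2 for 3xTg-AD alcohol, 0 to 2 for genotype, 0 to 3 for alcohol and 0 in the rest. The 3 came without WT control mouse 36 (Bc1, Lars2 and Gm42418). Without WT control 28 or 3xTg-AD control 13 there were 2 for WT alcohol, without WT control 27, WT alcohol 18 or 3xTg-AD control 12 there was 1 for 3xTg-AD alcohol, without WT alcohol 17 or 3xTg-AD alcohol 31 there was 1 for WT alcohol, and without 3xTg-AD alcohol 4 there were 2 for 3xTg-AD alcohol. Without WT alcohol 18 there were 2 for genotype (Tmsb4x and AC149090.1). Minimums of 6 Cnr1 UMIs or 3 UMIs of Gad1 and Gad2 were not run for calls, since no 3xTg-AD control mouse kept 3 nuclei.

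The share differences reversed to -0.535 points for alcohol, -1.29 for WT alcohol and -1.52 for 3xTg-AD alcohol after thinning, which became 0.00828, -0.310 and -0.541 without WT control 28, to -0.0279 for WT alcohol with at least 3 Cnr1 UMIs, and to -0.00621 and -0.0575 for 3xTg-AD alcohol over all nuclei and with at least 6 Cnr1 UMIs. Leaving out each mouse gave -0.565 to -0.0699 (without WT alcohol 6) for genotype, 0.420 (without WT alcohol 6) to 0.774 for alcohol, -0.627 to -0.0937 (without 3xTg-AD control 21) for 3xTg-AD control, 0.00756 (without WT alcohol 6) to 0.812 for WT alcohol and -0.0851 (without 3xTg-AD alcohol 34) to 0.561 for 3xTg-AD alcohol. Cnr1 in all GABAergic nuclei, without the 3 mice of high Gm42418, gave -0.29 for 3xTg-AD alcohol and 0.13 for the interaction on the log2 scale. Leaving out each mouse gave 0.33 to 0.71 for WT alcohol, -0.34 to -0.14 for genotype, 0.26 to 0.45 for alcohol, -0.51 to -0.13 for the interaction, -0.27 (without WT control 27) to 0.11 (without WT control 36) for 3xTg-AD control and -0.072 (without WT control 27) to 0.31 for 3xTg-AD alcohol, never past the threshold.

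Genes at least 2-fold higher and lower numbered 261 and 430 against other GABAergic nuclei, 333 and 524 against Vip, 386 and 725 against Lamp5, and 319 and 377 against Sst nuclei. With at least 6 Cnr1 UMIs, and so fewer UMIs, they numbered 468 and 767, 625 and 858, 695 and 1213, and 527 and 718. In nuclei of 2000 to 8000 UMIs they were 514 and 1201 against Vip, and 617 were higher against Lamp5. No named gene reversed: 101 of their values stayed within the spread and 29 moved.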

Other observations

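Adhesion genes and disease loci differed between the Cnr1-rich interneurons and the other GABAergic nuclei in single genes. Of 33 measured synaptic adhesion genes, 2 were at least 2-fold higher (Nrxn3 and Dscam, the latter at 90.4 ± 66.2 CPM over 15 mice against 34.6 ± 6.96) and 7 were lower, with a median log2 ratio of -0.15. Dscam reached the minimum only in the Cnr1-rich interneurons, and 4 of the 7 only in the other GABAergic nuclei. Neither Nrxn3 nor Dscam was 2-fold higher than in Vip nuclei. Beside these, 11 of 32 measured adhesion genes were 2-fold lower and 1 was higher (Cntnap5a), with a median log2 ratio of -0.66. The lower ones included Il1rapl1, a postsynaptic organizer (171 ± 110 CPM against 588 ± 183, lower in 15 of 15 mice), and Cntn5, a contactin (80 ± 87.7 against 218 ± 49.9). Of 14 measured genes at Alzheimer's disease loci, none was 2-fold higher and 2 were lower. These were the transcription factor Mef2c (587 ± 255 CPM against 1330 ± 135, lower in 15 mice) and the apolipoprotein gene Apoe (580 ± 538 against 1260 ± 457, lower in 14), whose main source in brain is astrocytes. Neither was 2-fold lower than in Vip or Sst nuclei, and only Mef2c was 2-fold lower than in Lamp5 nuclei. Mouse App was at 1127 ± 551 CPM against 668 CPM on average, higher in 13 of 15 mice. Of the interneuron genes that the study took up, Cntnap5a was at 348 ± 235 CPM against 282 ± 66.5, while Glra2 had 3 UMIs, Cntnap5b 1 and Cntnap5c none.

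Of 12 measured mitochondrial transcripts, none was 2-fold higher and 4 were lower, with a median log2 ratio of -0.81 (mt-Nd4 376 ± 189 CPM against 943 ± 181, lower in 15 mice). Beside Vip nuclei 2 of 12 were 2-fold lower, beside Sst nuclei 1 of 12 and beside Lamp5 nuclei 0 of 11. Of 6 measured ribosomal RNA-associated transcripts none differed 2-fold, and their sum ran from 2318 CPM to 32098 CPM between mice, highest in the WT control group. None of 3 measured immediate early genes differed 2-fold, with Egr1 at 61.4 ± 67.7 CPM against 102.4 ± 44.4, and no interferon or antigen presentation gene was measured. Of 10 Vip class genes 2 were measured and higher than in the other GABAergic nuclei (Tac2, which reached the minimum only in the Cnr1-rich interneurons, and Cxcl14), while beside Vip nuclei 5 were measured, none was higher and 4 were lower (Crh, Npy2r, Penk and Tac2). Lamp5 class genes were lower in 2 of 6 measured (Sv2c and Fgf13), both of which reached the minimum only in the other GABAergic nuclei. Meis2, a marker of striatal-type neurons, was detected in 9.41% of the Cnr1-rich interneurons against 21.5% of the other GABAergic nuclei.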
